A study of Oryctolagus cuniculus with 3 samples.

Results

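The long non-coding loci of rabbit cumulus-oocyte complexes were compared between the library labelled HAC and the library labelled LAC. A cumulus-oocyte complex is the oocyte with the layers of cumulus cells around it. A locus entered the comparison when it had at least 1 FPKM, a read level scaled by transcript length and library size, in the higher of both libraries. This held for 9939 of the 13113 long non-coding loci in the deposited tables. The study exposed female rabbits (Oryctolagus cuniculus), 150 in all and 35 days old at the start, to ammonia in the air for 4 weeks, per the labels. The groups were CG (under 3 ppm ammonia), LAC (10 ppm) and HAC (30 ppm), and the tissue was the cumulus-oocyte complex of the ovary in each of the 3. Each group has 1 library, so no difference below has a replicate check, a test or an error between animals, and the labels do not give the number of animals behind a library. In bulk RNA, fewer cells of a type and less RNA per cell cannot be told apart.

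The names LAC and HAC may be exchanged in the files. The deposited gene table of HAC is a copy of that of LAC, cell by cell, and is headed LAC. Its largest value, 39492 FPKM, matches the maximum in the statistics block that came with HAC and not the 86394 FPKM that came with LAC. The valid reads of the statistics and mapping blocks are crossed as well, with 72141648 and 72520954 in the file of LAC and 72520954 and 72141648 in the file of HAC. Long non-coding coverage headed LAC goes with that gene table, since it returned the tabulated count to within 5% at 94.0% of 8974 loci, whereas coverage headed HAC did so at 4.07% of 9183 loci. Every direction below is therefore a difference between the libraries labelled HAC and LAC, and holds for the ammonia levels only if the labels are right.

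Long non-coding RNAs are transcripts longer than the small regulatory RNAs that are not translated into a protein. Many are made by RNA polymerase II and are capped, spliced and polyadenylated like messenger RNA, and others come from a single exon or from within introns. Intergenic ones stand apart from coding genes, antisense ones run across a gene on the opposite strand, and those within introns can be RNAs of their own or remains of unspliced precursor RNA. In the ovary, growing oocytes store much of the RNA used at maturation, and cumulus cells supply the oocyte through gap junctions and make the hyaluronan matrix in which it is ovulated. Most loci here were assembled from reads and carry only an assembly number (MSTRG), and the files give no function for them.

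Each library's depth was read from the authors' own coverage. A level of 1 FPKM stood for a mean read depth of 6.41 in CG, 5.74 in LAC and 6.19 in HAC, with reads of 150 bases, and between 10964 and 11289 loci were above 0 in a library. The FPKM values of all long non-coding loci summed to 187654 in CG, 279144 in LAC and 226875 in HAC. Median-of-ratios factors, which put the typical locus at the same level, were 0.895, 1.23 and 0.937. They moved every HAC-against-LAC difference up by 0.39 before the pseudocount. In the file of LAC 16.23% of reads were spliced, in that of HAC 19.89% and in that of CG 22.01%. The labelled cells were present by their markers in the gene tables of CG and LAC: 12 of 12 oocyte markers in CG and 10 of 12 in LAC were at 1 CPM or more, an estimated count scaled to a common library total, and 10 of 13 granulosa and cumulus markers in each. Summed in CG and in LAC, the oocyte markers reached 3141 and 616 CPM, and the granulosa and cumulus markers 17306 and 15914 CPM. Theca and stroma markers summed to 26.5 and 79.9 CPM, endothelial markers to 49.3 and 7.75, smooth muscle markers to 64.1 and 68.3, macrophage markers to 52.6 and 22.3, lymphocyte markers to 14.4 and 2.92, epithelial markers to 83.6 and 21.6, and red blood cell markers to 0.051 and 0. No gene-level table of HAC was analysed here, so the part of cell makeup in the differences below was not tested.

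Spliced intergenic loci stood higher in HAC far more often than lower, under both scalings used. Single-exon and intronic loci had medians slightly below 0, but whether more of them were called lower or higher depended on the scaling. Differences are HAC minus LAC on the log2(FPKM + 1) scale, and a locus is called higher or lower when its difference is 1 or more in size. Of all 9939 loci, 1455 (14.6%) were higher in HAC and 1218 (12.3%) lower, with a median difference of -0.29. With median-of-ratios factors 9859 loci had at least 1 FPKM, and 1742 (17.7%) were higher and 644 (6.53%) lower, and the median was -0.01. The share of calls that were higher thus went from 54.4% as deposited to 73.0% with the factors. All 1455 loci that were higher as deposited were also higher with the factors, 644 of the 1218 lower ones were also lower, and 0 changed side. The shares of loci past the size rule are read below against these percentages.

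**Figure D1:**
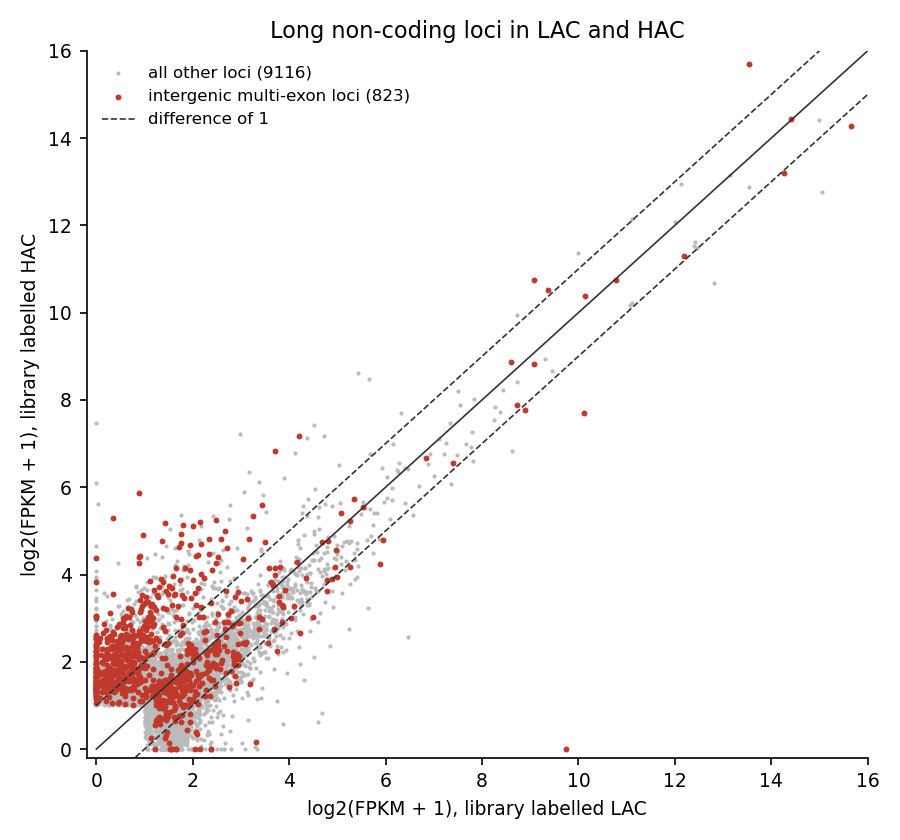
Each point is 1 of 9939 long non-coding loci, with log2(FPKM + 1) in the library labelled LAC on the x axis and in the library labelled HAC on the y axis. The 823 intergenic multi-exon loci (red) have 412 above the upper dashed line of a difference of 1, most at low LAC levels, and 46 below the lower one.

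Among the 823 intergenic loci with more than 1 exon, 412 (50.1%) were higher in HAC and 46 (5.59%) lower, and the median difference was 1.00. Their median level was 2.0, 1.26 and 2.78 FPKM in CG, LAC and HAC, so LAC was the lowest of the 3 libraries. The factors gave 447 higher, 25 lower and a median of 1.18. The 4167 intergenic loci of 1 exon had 471 (11.3%) higher, 618 (14.8%) lower and a median of -0.34. With the factors this balance turned, to 601 higher and 320 lower at a median of -0.08. All 7025 single-exon loci went from 650 higher and 1038 lower as deposited (median -0.38) to 847 and 547 with the factors (median -0.12). The median level of the 4167 intergenic loci of 1 exon was 1.07, 1.68 and 1.33 FPKM in CG, LAC and HAC, with LAC the highest of the 3.

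The number of exons ordered the intergenic loci. Of 284 loci with 3 or more exons, 209 (73.6%) were higher in HAC and 6 (2.11%) lower, and the median difference was 1.57. These loci had median levels of 2.69, 0.74 and 4.16 FPKM in CG, LAC and HAC. Of 539 loci with 2 exons, 203 (37.7%) were higher and 40 (7.42%) lower, and the median was 0.29. The quartiles of the loci with 2 exons were -0.38 and 1.40. A locus near 0 in LAC that enters through at least 1 FPKM in HAC has a difference near or above 1 by construction, and the same holds in the other direction, so the filter bears on how many loci lie just under 1. At the edge of the filter, the 78 loci at 1.00 to 1.05 FPKM in the higher library had 5 higher and 0 lower. None of the 57 loci at 0.95 to 0.99 FPKM just outside could be called, because a difference of 1 on this scale needs at least 1 FPKM. Both sets had a median of -0.02.

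**Figure D2:**
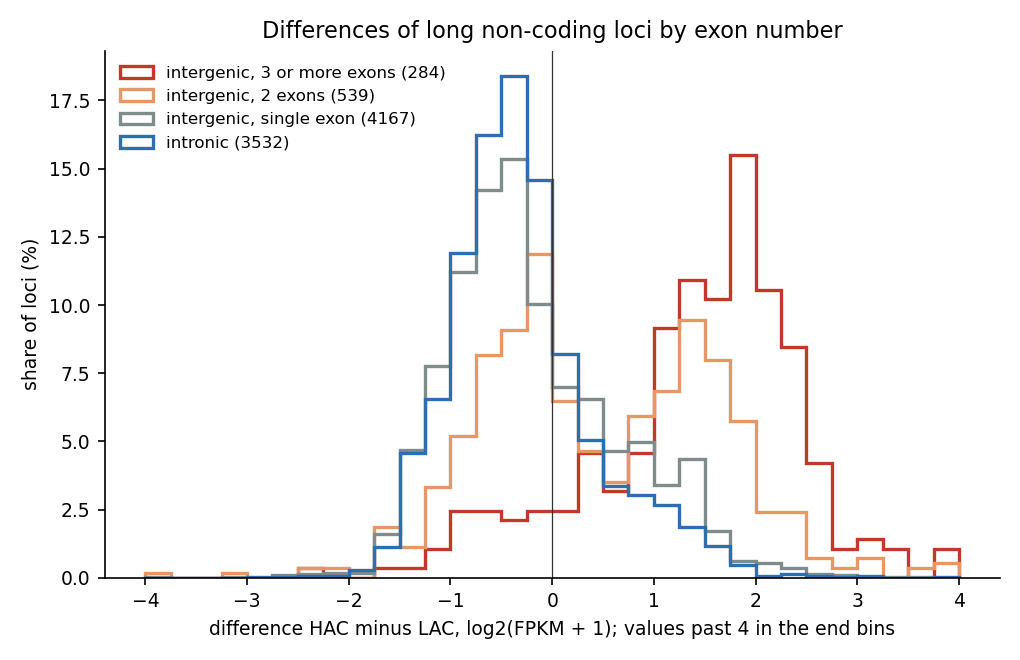
The x axis gives the difference HAC minus LAC in log2(FPKM + 1), and the y axis the share of each set's loci in bins of 0.25. Intergenic loci with 3 or more exons (red) centre on a median of 1.57, while single-exon intergenic loci (grey, median -0.34) and intronic loci (blue, median -0.39) peak below 0.

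The difference between spliced intergenic loci and single-exon loci of all classes was seen within most bins of length and level. Intergenic multi-exon loci whose longest transcript had up to 300 bases had a median difference of 1.09, those of 300 to 500 bases 1.39, of 500 to 1000 bases 1.24, of 1000 to 2000 bases 1.17 and of 2000 to 5000 bases 0.61. The 89 loci of over 5000 bases had a median of -0.23, with 3 higher and 7 lower, and with the factors 0.03, with 5 higher and 4 lower. Single-exon loci of all classes had medians from -0.42 to -0.34 in the same bins, and from -0.15 to -0.06 with the factors. By level in the higher library, the intergenic multi-exon medians were 0.66 at 1 to 2 FPKM, 1.08 at 2 to 5, 1.68 at 5 to 10 and 1.88 at 10 to 100. This level is 1 of the 2 values that form the difference. On the log2(FPKM + 1) scale a low level also caps the size of the difference. The rise of the medians with level is thus partly built in. Above 100 FPKM the 19 loci had 5 higher and 5 lower and a median of -0.17, and with the factors 5 higher and 2 lower and a median of 0.22. Single-exon loci of all classes had medians of -0.3 at 1 to 2 FPKM, -0.46 at 2 to 5, at 5 to 10 and at 10 to 100, and -0.66 above 100. With the factors the single-exon medians by level were -0.18, 0.07, -0.02, 0.01 and -0.27 in the same order. Among the intergenic multi-exon loci, exon structure was also read by transcript number. The 644 intergenic multi-exon loci with 1 transcript had 302 higher and 35 lower, and the 179 with 2 or more transcripts had 110 and 11. The share of spliced reads moved in the same direction, with 16.23% in the file of LAC and 19.89% in that of HAC, but its part in the result was not tested. The share of 16.23% comes with 72520954 valid reads. That total also stands beside the maximum of 39492 FPKM, which is that of the gene table headed LAC. Long non-coding coverage headed LAC goes with the same gene table. By read totals, 16.23% thus belongs to the library labelled LAC here, and 19.89% to the library labelled HAC. Whether these labels give the right ammonia levels stays uncertain.

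The other classes lay between these extremes. Antisense loci had 81 of 264 (30.7%) higher and 22 (8.33%) lower, and their median was 0.03. Loci that share a splice junction with an annotated gene had 109 of 376 (29.0%) higher and 44 (11.7%) lower, and their median was 0.13. Loci whose transcripts belong to more than 1 class, called mixed here, had 66 of 199 (33.2%) higher and 15 (7.54%) lower, at a median of 0.09. Loci that overlap an exon of a gene had 36 of 241 (14.9%) higher and 9 (3.73%) lower, at a median of -0.19. The 337 known long non-coding loci, those that match an annotated transcript, had 50 (14.8%) higher, close to the 14.6% of all loci, and 9 (2.67%) lower. Their median was -0.11. With the factors the medians were 0.33 for antisense, 0.44 for junction-sharing, 0.45 for mixed, 0.07 for exon-overlapping and 0.22 for known loci. The sign thus turned for the exon-overlapping and known loci. None of these classes had most of its loci higher. The 682 intronic loci with more than 1 exon had 52 (7.62%) higher and 37 (5.43%) lower and a median of -0.28, which was -0.01 with the factors. All 2914 multi-exon loci together had a median of -0.04 as deposited and 0.26 with the factors.

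**Figure D3:**
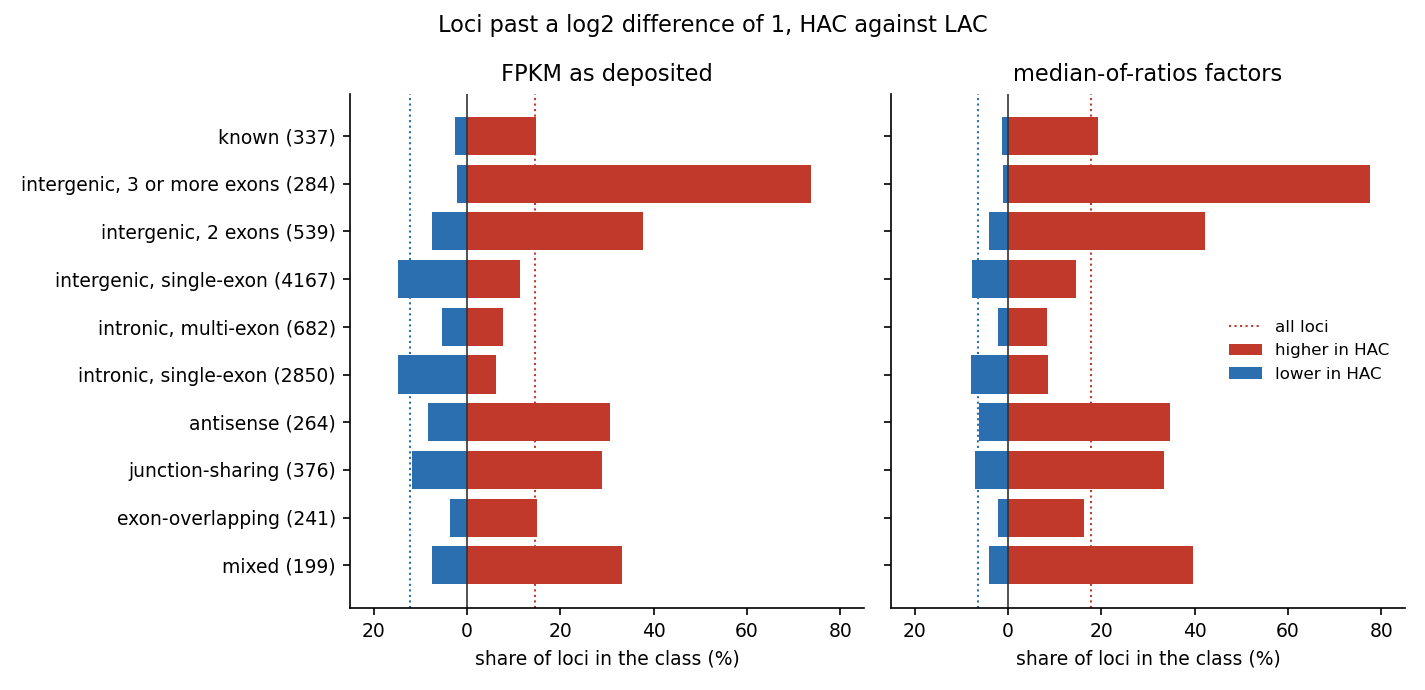
Bars give the share of loci in each class that were higher (red, to the right) or lower (blue, to the left) in HAC by a log2 difference of 1 or more, with the number of loci in brackets and dotted lines for all loci. Intergenic loci with 3 or more exons reach 73.6% higher as deposited (left) and 77.5% with median-of-ratios factors (right), and the lower share of single-exon intergenic loci goes from 14.8% to 7.74%.

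Where the control library lay differed between both sets of called loci. The loci higher in HAC had median levels of 1.5, 0.27 and 2.65 FPKM in CG, LAC and HAC. CG lay between LAC and HAC at 1076 of the 1455, at or above both at 185 and at or below both at 194, and it was nearer to HAC on the log2(FPKM + 1) scale at 817 (56.2%). The loci lower in HAC had medians of 0.56, 2.08 and 0.3 FPKM in CG, LAC and HAC, and CG was nearer to HAC at 958 of 1218 (78.7%). Both sets were selected on their LAC and HAC values, so the side on which CG lies is partly set by that selection. Over all 9939 loci the medians were 1.3, 1.78 and 1.51 FPKM in CG, LAC and HAC. The share of all loci with CG nearer to HAC was not computed. Over all classes, the loci higher in HAC rested on more reads. The median in the higher library was 75 read equivalents, computed as coverage times length over the read length, against 32.8 for the lower ones. Under 20 read equivalents in the higher library stood behind 189 of the higher and 310 of the lower loci. These contrasts differed by exon number. Among intergenic multi-exon loci the read medians were 132 for the higher and 329 for the lower loci, and CG was nearer to HAC at 65.0% and 63.0%. Among single-exon loci the read medians were 36.1 and 29.1, and CG was nearer to HAC at 48.5% and 80.9%.

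Among called loci, more were listed at 0 in LAC than in HAC. A locus listed at 0 in 1 of these libraries that passes the filter is called by construction. Of all 13113 loci, 10964 were above 0 in LAC and 11289 in HAC, so LAC had more loci at 0 there as well. LAC was listed at 0 for 364 of the 1455 higher loci, of which 177 had more than 1 exon and 26 had at least 5 FPKM in HAC. HAC was listed at 0 for 197 of the 1218 lower loci, of which 31 had more than 1 exon and 7 had at least 5 FPKM in LAC. No fold is given for these loci, because an estimate of 0 can be a failed one.

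At 5 FPKM or more in the higher library, 352 loci were higher in HAC under both scalings and 88 lower. The intergenic multi-exon loci made up 142 of the former and 10 of the latter. Intronic loci gave 25 and 19, antisense loci 26 and 3, junction-sharing loci 46 and 13, mixed loci 41 and 6, exon-overlapping loci 13 and 1, and known loci 10 and 3. The 10 loci in each direction with the largest differences were taken from these.

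Several of the loci with the largest excess over LAC were spliced and intergenic. All positions are in OryCun2.0 under the sequence names that the files use, and values follow the order CG, LAC and HAC where the libraries are not named. The intergenic locus MSTRG.15047 (NC_013683.1:74239019-74247249, minus strand, 2 transcripts) had 58.9, 0.84 and 57.4 FPKM in CG, LAC and HAC, a difference of 4.99. LAC alone was low. A weaker locus on its opposite strand, MSTRG.15046, had 0.92, 0 and 1.34 FPKM. The intergenic locus MSTRG.673 (NC_013669.1:87464183-87464943, minus strand, 2 exons) had 14.0, 0.27 and 38.6 FPKM in CG, LAC and HAC, a difference of 4.96. HAC was 143-fold above LAC, with a 95% interval of 73.6 to 379. Such intervals are exact binomial on read equivalents of loci with 1 transcript, and they cover counting error only. MSTRG.26164 (NW_003160474.1:6149-10776, plus strand) had 1.16 FPKM in CG, 19.9 in HAC and was listed at 0 for LAC.

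Further spliced intergenic loci, chosen after their values were seen, also had LAC as the lowest library. MSTRG.9784 (NC_013679.1:2725855-2803160), with 15 transcripts and up to 5 exons, had 30.9, 1.67 and 35.4 FPKM in CG, LAC and HAC. MSTRG.25044 (NW_003159668.1:144975-183664) had 18.5, 0.96 and 29.0 FPKM. MSTRG.1693 (NC_013669.1:192759591-192769509), a transcript of 4 exons, had 17.8 FPKM in CG, 13.3 in HAC and was listed at 0 for LAC. At these 3 loci CG was nearer to HAC than to LAC. MSTRG.2301 (NC_013670.1:70502710-70515844) had CG nearer to LAC, with 4.88, 1.57 and 26.2 FPKM. MSTRG.6347 (NC_013675.1:24022296-24049459) had 6.55, 0.85 and 18.1 FPKM, with CG between the others. The 2-exon locus MSTRG.22288 (NW_003159383.1:8125-22846) had 14.6, 0.85 and 20.2 FPKM, 23.8-fold higher in HAC than in LAC (95% interval 14.3 to 44.9). The 2-exon locus MSTRG.9424 (NC_013678.1:9232611-9241800) had 8.49, 0.88 and 20.3 FPKM, 23.1-fold higher in HAC (18.7 to 29.0).

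A run of 6 neighbouring loci called higher in HAC lay on NC_013681.1 (122434796-122577685), next to or across the gene LOC100347417. Runs hold only loci called in the same direction, so that direction is shared by construction. Its highest member, MSTRG.12882, with 11 transcripts, had 108, 6.94 and 148 FPKM in CG, LAC and HAC, a difference of 4.23. MSTRG.12885 had 42.8, 10.1 and 55.3 FPKM, and the antisense locus MSTRG.12884 had 15.5, 4.38 and 21.3 FPKM. MSTRG.12888, on the opposite strand to the others, had 9.87, 1.99 and 11.9 FPKM, MSTRG.12889 had 4.28, 1.09 and 6.01, and MSTRG.12887 had 3.67, 0.48 and 4.88. The differences ran from 1.75 to 4.23, and the 3 libraries stood in the same order at each locus, with LAC lowest and HAC highest. Because MSTRG.12882, MSTRG.12885 and MSTRG.12888 overlap by at least 50% of their spans, these loci are not independent measurements. A run of 3 overlapping loci on NW_003159929.1 (11516-70229) had the same order: MSTRG.25676 with 10.0, 2.35 and 11.4 FPKM, MSTRG.25677 with 30.6, 4.36 and 39.3, and MSTRG.25678 with 21.6, 1.89 and 32.0.

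Loci over annotated genes had the 3 largest differences in favour of HAC, but an assembly divides reads between such a locus and its gene, so their levels are uncertain. The antisense locus MSTRG.25695 at LOC108176166 (NW_003159949.1:60211-61502) had 11.2 FPKM in CG, 176 in HAC and was listed at 0 for LAC, a difference of 7.47. Its neighbour MSTRG.25693, on the same strand and with overlapping span, had 301, 181 and 295 FPKM in CG, LAC and HAC. The sum of both had 313, 181 and 471 FPKM and a difference of 1.37. At FAU, which encodes a ribosomal protein fused to a ubiquitin-like protein, the junction-sharing locus MSTRG.24584 (NW_003159568.1:176921-178333) had 2 FPKM in CG, 67.4 in HAC and was listed at 0 for LAC. At H4C14, a histone H4 gene, the exon-overlapping locus MSTRG.12150 (NC_013681.1:42169569-42189087) had 2.47, 0.03 and 48.4 FPKM, where the value in LAC stands for under 1 read. At UQCRQ, which encodes a subunit of respiratory complex III, MSTRG.3333 (NC_013671.1:15890388-15891568) was listed at 0 in CG and LAC and had 24.3 FPKM in HAC. At these 4 loci CG was nearer to LAC, and HAC alone was high. A further 2 exon-overlapping loci were listed at 0 in LAC, MSTRG.4371 at LOC100358078 with 0 FPKM in CG and 16 in HAC, and MSTRG.7898 at LOC100125981 with 34.1 in CG and 14.4 in HAC. Also chosen after their values were seen, the junction-sharing loci MSTRG.8900 at PROK2, a secreted prokineticin, and MSTRG.24463 at PRPF31, a splicing factor, were listed at 0 in CG and LAC and had 11.5 and 9.51 FPKM in HAC.

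**Figure D4:**
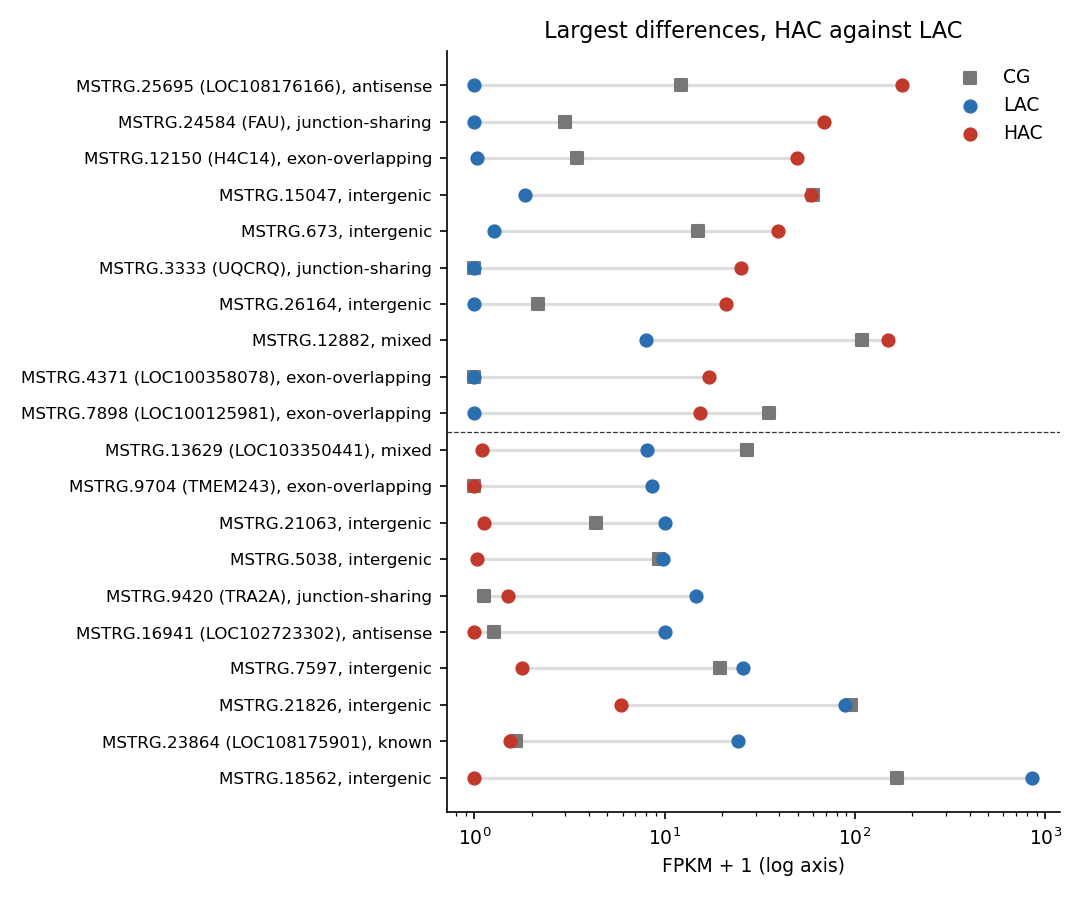
FPKM + 1 on a log axis for the 10 loci with the largest difference in each direction (rows, higher in HAC above the dashed line), with CG as grey squares, LAC as blue circles and HAC as red circles. A point at 1 is a locus listed at 0 in that library, as MSTRG.18562 is in HAC against 849 FPKM in LAC.

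Intronic, junction-sharing and known loci were among those higher in HAC too. The intronic locus MSTRG.13100 in WASF2, a gene of actin assembly, lies at NC_013681.1:137998187-137999373 and had 160, 41.8 and 389 FPKM in CG, LAC and HAC. HAC was 9.31-fold above LAC (95% interval 8.88 to 9.77), and LAC was again the lowest. A further intronic locus, MSTRG.12377 in LOC100355875, had 49.2, 0.36 and 18.3 FPKM. At IL1RAPL2, a member of the interleukin 1 receptor family, the junction-sharing locus MSTRG.19706 had 97.5, 19.8 and 139 FPKM, 7.03-fold higher in HAC (6.65 to 7.44). The 2-exon intergenic locus MSTRG.4376, of 220 bases, had 367, 539 and 1706 FPKM in CG, LAC and HAC, 3.16-fold higher in HAC (3.06 to 3.27). Among known loci, MSTRG.2237 (LOC103345596) had 13.6, 1.07 and 19.6 FPKM and MSTRG.2309 (LOC108175899) had 3.26, 0.42 and 5.99. The mitochondrial sequence, assembled as the intergenic locus MSTRG.1, had 832, 658 and 1468 FPKM, a difference of 1.16. The mixed locus MSTRG.25338 at LOC108176108 had 1.77 FPKM in CG, 8.18 in HAC and was listed at 0 for LAC.

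The loci lower in HAC differed in where CG lay, since some were high in LAC alone and others in CG as well. Of the former, the known locus MSTRG.23864 (LOC108175901, NW_003159474.1:133681-134845) had 0.65, 23.2 and 0.53 FPKM in CG, LAC and HAC. LAC was 43.9-fold above HAC (95% interval 26.8 to 83.4). The junction-sharing locus MSTRG.9420 at TRA2A, a splicing regulator, had 0.12, 13.6 and 0.5 FPKM, 27.2-fold higher in LAC than in HAC (18.5 to 41.0). MSTRG.16941, antisense at LOC102723302, had 0.26 FPKM in CG, 9.06 in LAC and was listed at 0 for HAC. MSTRG.9704, overlapping an exon of TMEM243, and MSTRG.25398, sharing a junction of the septin gene SEPT9, were listed at 0 in CG and HAC and had 7.52 and 5.24 FPKM in LAC. The junction-sharing locus MSTRG.3891 at RAB2A, a gene of vesicle traffic, had 4.36, 36.6 and 5.69 FPKM, and the mixed locus MSTRG.22312 at RLIM, a ubiquitin ligase gene, had 1.57, 7.7 and 1.49. At these 7 loci CG and HAC were both well below LAC.

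Of the latter, the single-exon intergenic locus MSTRG.21826 (NW_003159366.1:1758337-1760808) had 94.0, 87.6 and 4.92 FPKM in CG, LAC and HAC. LAC was 17.8-fold above HAC (16.3 to 19.5), and HAC alone was low. Its neighbour MSTRG.21825, another single-exon locus, had 57.5, 48.4 and 8.33 FPKM. The single-exon intergenic loci MSTRG.7597 and MSTRG.5038 had 18.6, 24.8 and 0.78 FPKM and 8.37, 8.75 and 0.03 FPKM. The 9007 bases of MSTRG.5038 held 3016 read equivalents in LAC and 12.0 in HAC. At MSTRG.21063, with 3.33, 8.98 and 0.12 FPKM, CG lay between the others. The mixed locus MSTRG.13629 at LOC103350441 had 26.2, 7.11 and 0.1. The known locus MSTRG.12284 (LOC108177608) had 14.9, 20.8 and 6.9 FPKM. In introns, MSTRG.18312 in SKA2, a gene of the spindle and kinetochore complex, had 5.45 FPKM in CG, 5.93 in LAC and was listed at 0 for HAC. On the opposite strand MSTRG.18311 had 0.58, 0.5 and 4.4 FPKM there. In SKA1, of the same complex, MSTRG.9281 had 0.84, 5.32 and 0.11 FPKM, and CG was low with HAC.

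Runs of neighbouring loci called lower in HAC lay at several places, and here too the shared direction is by construction. On NC_013669.1 (68584426-68612770) 5 single-exon intergenic loci without strand, MSTRG.545 to MSTRG.549, were listed at 0 in CG, had 2.02 to 3.96 FPKM in LAC and 0.16 to 0.5 in HAC. Their differences ran from -1.94 to -1.3, and LAC was the only library with 1 FPKM or more at any of them. On NC_013670.1 (93095754-93119288) 4 loci in introns of TSGA10, a gene known from testis, had a median of 0.755, 2.83 and 0.62 FPKM in CG, LAC and HAC, and 1 of them, MSTRG.2434, went from -1.21 to -0.96 with the factors. On NC_013687.1 (43837723-43894100) 4 abundant intergenic loci were lower in HAC as deposited, of which MSTRG.18563 went from -1.12 to -0.73 with the factors and no longer passed the size rule. MSTRG.18562 had 165 FPKM in CG, 849 in LAC and was listed at 0 for HAC, MSTRG.18563 had 342, 473 and 217, MSTRG.18564 had 641, 1113 and 205, and MSTRG.18565 had 2188, 7193 and 1651. MSTRG.18562 lies within the span of MSTRG.18561 on the opposite strand, which had 2581, 4675 and 2511 FPKM. The sum of both was 5524 FPKM in LAC and 2511 in HAC, a difference of -1.14, while that of MSTRG.18562 alone was -9.73.

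The most abundant loci included some with small and some with large differences. The intergenic locus MSTRG.18322 had 14206, 21602 and 22333 FPKM in CG, LAC and HAC, a difference of 0.05. The single-exon antisense locus MSTRG.20958 at WDR74, a gene of ribosome assembly, had 8997, 34109 and 7004 FPKM. LAC was 4.87-fold above HAC (4.85 to 4.89), and CG lay near HAC. At NC_013685.1 (68976207-68986645) a pair of loci on opposite strands of the same span went in opposite directions. MSTRG.16948, on the minus strand, had 19753, 51477 and 19865 FPKM in CG, LAC and HAC. MSTRG.16949, on the plus strand, had 40127, 11872 and 53003 FPKM. Their sum was 59880, 63349 and 72868 FPKM in CG, LAC and HAC, a difference of 0.20. The listed division between the strands thus differed far more than the total. Whether the RNA or the assignment of reads to strands differed was not tested. The intronic loci MSTRG.13918 in MYLK, the myosin light chain kinase gene, and MSTRG.23419 in ARHGAP22 had 4504, 5458 and 3125 FPKM and 581, 5371 and 2936 FPKM. Neither passed the size rule between LAC and HAC, though ARHGAP22's locus was lowest in CG.

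Overlap of this kind touched a small part of the called loci. Of 93 pairs of loci whose spans overlapped by at least 50% of both, 12 had both loci higher, 0 both lower, 4 had 1 higher and 1 lower, 27 had 1 called locus and 50 had none. These pairs held 169 loci, 49 of them called. The pair MSTRG.10095 and MSTRG.10096, on opposite strands, had the same values at both, 10.86, 1.21 and 6.04 FPKM in CG, LAC and HAC. Within loci, 443 had at least 2 transcripts of 1 FPKM or more, and at 55 of them (12.4%) 1 transcript was higher and another lower. At 40 of these 55 the locus sum passed in neither direction.

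Intronic loci were lower in HAC by a small amount across many host genes. Of 3532 intronic loci, 230 (6.51%) were higher and 455 (12.9%) lower, against 14.6% and 12.3% of all loci, with a median of -0.39. The median-of-ratios factors turned this to 302 and 239 loci, at a median of -0.12. They lay in 1564 host genes, of which 58 held at least 10 loci each and 954 together. At 53 of these 58 genes the median difference was below 0, at 43 with the factors, and 42 genes had no locus that was higher. The 954 loci gave 20 higher and 104 lower, a share of lower loci under the 12.3% of all loci and a share of higher ones well under the 14.6%. The median of all loci was below 0 as well, at -0.29 as deposited and -0.01 with the factors. FHIT, a gene of a common fragile site, held 73 loci with a median of -0.35 and median levels of 1.51, 1.85 and 1.3 FPKM in CG, LAC and HAC, and 63 of the 73 were below 0. Its median was -0.11 with the factors. IMMP2L, which encodes a peptidase of the inner mitochondrial membrane, held 62 with a median of -0.56 (-0.31 with the factors) and levels of 1.11, 1.76 and 0.98 FPKM.

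The 4 genes with the lowest medians were TSGA10, NAALADL2, BNC2 and PRKG1. TSGA10 had a median of -1.27 over 11 loci, 8 of them lower, with levels of 0.48, 2.59 and 0.52 FPKM in CG, LAC and HAC. NAALADL2 had -1.20 over 13 loci, 9 of them lower and 2 higher, with levels of 0.4, 1.88 and 0.4 FPKM. BNC2, a zinc finger gene, had -1.03 over 13 loci, all below 0, and its levels were 2.75, 6.97 and 2.7 FPKM. PRKG1, which encodes a cGMP-dependent protein kinase, had -1.03 over 11 loci with levels of 0.38, 1.76 and 0.33. With the factors these medians were -1.02, -0.97, -0.71 and -0.84. At these 4 genes CG and HAC were alike and LAC was high. SLC44A5, with a median of 0.50 over 11 loci, and TOX, with 0.24 over 10, were above 0. Loci of 1 gene share that gene's precursor RNA and are not independent, and the level of the host genes in HAC was not analysed here.

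**Figure D5:**
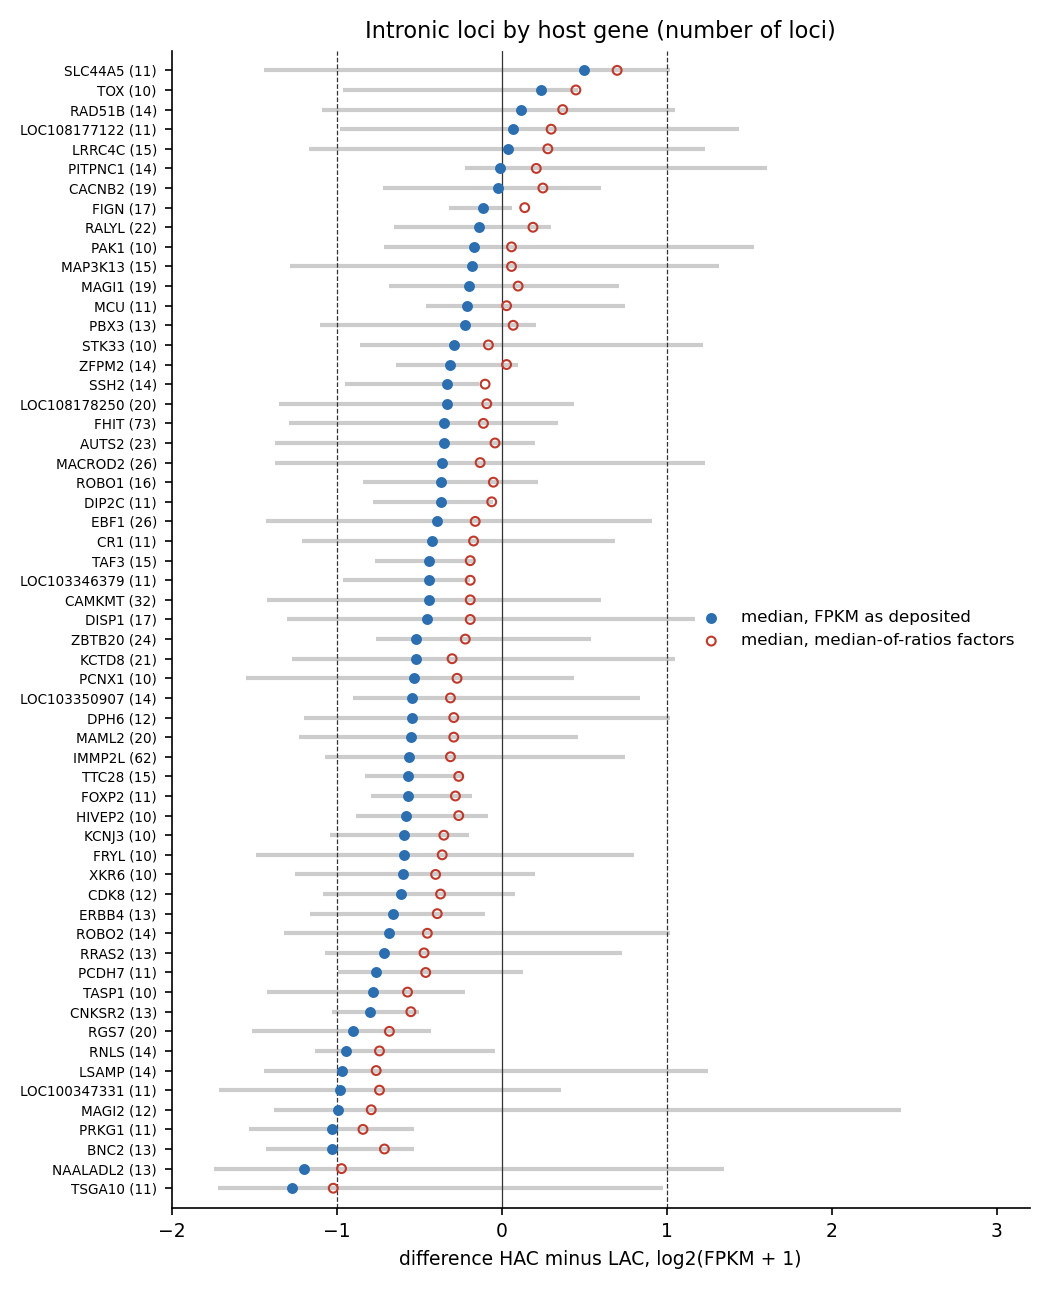
For each of the 58 genes with at least 10 intronic loci (rows, number of loci in brackets) the x axis shows the lowest and highest difference HAC minus LAC in log2(FPKM + 1) (grey line) and the median (blue, as deposited, and red, with median-of-ratios factors). Medians run from -1.27 at TSGA10 to 0.50 at SLC44A5, and 53 of the 58 lie below 0 as deposited.

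Gene lists of the ovary were thinly covered by long non-coding loci. None of the 37 oocyte genes, the 15 genes of endothelium and smooth muscle, the 17 blood cell genes or the 37 known long non-coding and small RNA host genes had a locus. Among granulosa and cumulus genes, 3 of the 15 loci at 7 genes were higher and 0 lower, and the median was -0.13. Of all loci 14.6% were higher and 12.3% lower, at a median of -0.29, so 3 of 15 is near the share of all loci. At INHBA, which encodes a subunit of activin and inhibin, the antisense locus MSTRG.9583 (NC_013678.1:24687834-24691147, 6 transcripts) had 441, 49.6 and 355 FPKM in CG, LAC and HAC, a difference of 2.82. LAC alone was low. The locus overlaps its gene on the opposite strand, and since 5990 loci carry no strand it is uncertain whether antisense levels are free of reads from the genes themselves. At INHBB, which encodes the other activin subunit of the pair, the antisense locus MSTRG.6678 was listed at 0 in CG and LAC and had 3.43 FPKM in HAC. At HAPLN1, a link protein of the cumulus matrix, the junction-sharing locus MSTRG.9794 had 3.63, 0.45 and 3.87 FPKM, a difference of 1.75. The other 12 had differences of under 1 in size, among them MSTRG.16038 in an intron of NR5A2, a nuclear receptor of granulosa cells, with 8.53, 13.9 and 8.81 FPKM.

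Signalling genes had the most loci and no call. Over 46 loci at 13 genes of the TGF-beta, PI3K, Wnt and Hippo pathways, 0 were higher and 0 lower, the differences ran from -0.85 to 0.62 and the median of -0.32 was near the -0.29 of all loci. The intronic locus MSTRG.7287 in BMPR2, a receptor for oocyte-secreted BMP15, had 5.93, 5.96 and 5.51 FPKM in CG, LAC and HAC. MSTRG.22252 in IGF1R, the receptor of insulin-like growth factor 1, had 4.25, 7.12 and 3.52 FPKM. Most of these 46 loci, 38, were intronic, and their median was -0.27.

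Ribosomal protein genes had 2 of 5 loci higher, against 14.6% of all loci, and both were listed at 0 for LAC. They were the FAU locus above and MSTRG.21809, antisense at RPL7A, which was listed at 0 in CG and LAC and had 3.04 FPKM in HAC. The known locus MSTRG.22541 at RPS28 had 95.3, 136 and 136 FPKM. Of 3 loci at apoptosis genes, MSTRG.9426, which shares a junction of the cytochrome c gene CYCS, was higher, with 2.28 FPKM in CG, 5.32 in HAC and a listing of 0 in LAC. In BCL2, an inhibitor of apoptosis, the intronic locus MSTRG.9346 was lower with 0.65, 2.04 and 0.34 FPKM and a difference of -1.18, which was -0.96 with the factors. A further BCL2 locus, MSTRG.9347, had 0.93, 1.86 and 1.57 FPKM.

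The lists closest to ammonia and cell stress had few loci. Of these, the apoptosis list above had 1 locus higher and 1 lower as deposited. No locus of the lists below passed the size rule. For ammonia, glutamine and urea handling 1 locus was measured, MSTRG.23710 in an intron of the glutamine carrier gene SLC1A5, with 1.23, 0.78 and 1.83 FPKM in CG, LAC and HAC on 7.03 and 17.8 read equivalents in LAC and HAC. As deposited, HAC was 2.35-fold above LAC with an interval of 0.95 to 6.75, which spans 1. With the factors the levels were 0.63 in LAC and 1.95 in HAC, and the difference was 0.85 against 0.67 as deposited. No interval was computed with the factors, so whether it would span 1 was not tested. The antioxidant genes had 2 loci, MSTRG.42 in thioredoxin (TXN) with 1.2, 2.6 and 1.18 FPKM and MSTRG.2330 in glutathione reductase (GSR) with 2.18, 1.24 and 1.56. The unfolded protein and heat shock genes had 2, in EIF2AK3 with a difference of 0.15 and HSPE1 with 0.02. The inflammation and interferon genes had 2, in USP18 with -0.34 and NFKB1 with -0.39. Steroid and cholesterol synthesis had 2, MSTRG.854 at FDX1, the electron donor of mitochondrial steroid-making enzymes, with 2.82, 6.53 and 3.34 FPKM and MSTRG.10203, antisense at HMGCS1, with 0.68, 2.86 and 1.36. The cell cycle list had 1, MSTRG.7840 in CCND2, the cyclin D2 gene, with 5.3, 8.82 and 4.4 FPKM. Theca, stroma and matrix genes had 4 loci with a median of -0.33, of which MSTRG.13207 in COL6A6 had 0.06, 15.2 and 10.0 FPKM. The respiratory chain genes had 3 loci with differences from -0.17 to -0.05, among them MSTRG.11925 at SDHC with 2.37, 36.9 and 33.7 FPKM and the known locus MSTRG.19809 at NDUFA1 with 44.8, 46.4 and 44.7.

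Of the 5 known loci with a symbol of their own and the highest means, RPS28 and NDUFA1 among them, 1 passed the size rule. MSTRG.12521 (GNG5) had 173, 178 and 106 FPKM, MSTRG.17695 (USMG5) had 166, 152 and 128. MSTRG.1018 (SMCO4), with 10 transcripts, had 28.9, 9.7 and 23.1 FPKM in CG, LAC and HAC and was higher by 1.17.

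By sequence, the share of loci higher in HAC ran from 9.28% on NC_013687.1 to 29.1% on NC_013673.1, where 30 of 103 were higher and 7 lower, among sequences with at least 100 loci. The lowest median was on NC_013690.1, with -0.56 over 252 loci. It came with its single-exon loci, at -0.64, while its 60 multi-exon loci had -0.09. The authors' coding potential scores of the transcripts were alike: the median CPC score was 0.05 for the 1701 higher transcripts, 0.02 for the 1256 lower ones and 0.05 for the 7271 others. Of all loci, the 3949 with a strand had 886 (22.4%) higher and 269 (6.81%) lower, and the 5990 without a strand had 569 (9.5%) and 949 (15.8%). With the factors the loci without a strand turned to 745 higher and 502 lower, and those with a strand had 997 and 142.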

How the data were processed

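RNA of 3 cumulus-oocyte complex libraries was measured. Libraries were depleted of ribosomal RNA and marked for strand with dUTP, per the labels' protocols. The build OryCun2.0 and the tools fastp and HISAT2 come from the submitters' processing notes. Neither these nor the labels name an assembler or quantifier. The authors deposited, per the file headers, FPKM, a coverage signal, coding potential scores and gene-level estimated counts. A read equivalent is coverage times length over 150 bases. FPKM of the 15335 transcripts was summed over each of 13113 loci. Differences are on log2(FPKM + 1), which understates low loci, with a minimum of 1 FPKM. Median-of-ratios factors used the 10224 loci above 0 in all libraries. With 1 library per group no test was made. Calculations used Python 3.11.15, pandas 2.3.3, numpy 2.4.6, SciPy 1.17.1 and matplotlib 3.10.9, and were tested on simulated data. Of 3404 LOC names, 98 got a symbol from RefSeq's mOryCun1.1 table.

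The rule for named loci took, in each direction, the 10 largest differences at 5 FPKM or more under both scalings, the 2 largest in each direction and the 2 highest means per class, the 3 highest listed at 0 in the other library per direction, up to 4 per gene list and the 5 highest with an own symbol. Others were chosen after their values were seen. Members and lists were chosen with earlier results of these data known. Alternatives tried were other scalings, pseudocounts, FPKM minimums, a size rule of 2, single transcripts, coverage, merged loci and a read minimum. Runs are 3 or more neighbouring called loci of 2 FPKM or more with gaps of at most 10000 bases.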

Additional observations from a re-analysis of the deposited data

How the results depend on the processing

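No paired analysis was possible because each group has 1 library, and no library could be left out. Depth limits the calls at low loci, and the LAC and HAC labels are uncertain. For all loci, the counts higher and lower in HAC (1455 and 1218 as reported) and the median became as follows. With median-of-ratios factors the lower count was 644 and the median -0.01. With FPKM rescaled to an equal sum in each library they were 2497, 1874 and -0.08. A pseudocount of 0.1 gave 2090 higher and 2733 lower, so that 43.3% of calls were higher against 54.4% as reported, and a median of -0.41, and a pseudocount of 5 gave 234, 64 and -0.12. At 10 FPKM or more they were 175, 85 and -0.14. Without a filter the median was -0.10, a size rule of 2 gave 279 and 48, single transcripts gave a median of -0.26 and coverage one of -0.21. At 50 read equivalents or more, chosen after seeing the data, the counts were 899 and 457.

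For intergenic multi-exon loci (412, 46 and 1.00 as reported), the factors gave 25 lower and a median of 1.18, and rescaling a median of 1.64. A pseudocount of 0.1 gave 91 lower and 1.62, and a pseudocount of 5 gave 99, 10 and 0.36. At 10 FPKM or more they were 67, 15 and 1.66, a size rule of 2 gave 120 and 7, and single transcripts gave 78 lower. Under each of these settings more of these loci were higher than lower. Among named loci, MSTRG.16948 turned to 0.20 when overlapping loci were merged, which sums it with its opposite strand. The most abundant single transcript of MSTRG.16852 had -1.81, of MSTRG.18567 3.10 and of MSTRG.18568 2.23, against locus sums of 0.08, -1.07 and -0.25. The cause of other changes was not tested.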
